A study of Kluyveromyces lactis with 12 samples.

Results

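INO1 (KLLA0D16412g) of the budding yeast Kluyveromyces lactis is the counterpart of the Saccharomyces cerevisiae gene for inositol-3-phosphate synthase. It is 1 gene of the 5081 on the array, identified by its systematic name, and was chosen by its known ratio of deletion over wild type and its levels in these arrays. Those values are therefore given as a description, with no test. Each of the 12 arrays carried 2 INO1 spots.

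The study asked how a yeast lacking the transcription factor KlYap8 responds to arsenite and to a peroxide. On each 2-colour Agilent array, the deletion strain Klyap8∆ and the wild type Klwt of 1 condition were hybridised together in different dyes. The labels give 4 biological experiments in each of 3 conditions, and the dyes were swapped on 2 of the 4 arrays of each. Both strains were in exponential growth in the rich medium YPD and were untreated, exposed for 30 min to sodium arsenite, or exposed for 30 min to t-BOOH (tert-butyl hydroperoxide, an organic peroxide) at 0.25 mM. For arsenite the sample labels state 25 mM and the protocol text states 0.1 mM. No allele other than the yap8 deletion is named for either strain, and the labels do not say whether the deletion strain is 1 clone. Each value is an average over a culture, in which fewer cells carrying the transcript and less of it per cell cannot be told apart.

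The enzyme turns glucose 6-phosphate into inositol 3-phosphate, the first committed step of inositol synthesis. Inositol is built into phosphatidylinositol, and from there into phosphoinositides, inositol polyphosphates and the inositol sphingolipids. In S. cerevisiae, INO1 is the classic target of the Ino2 and Ino4 activators, which are held back by Opi1 when inositol is plentiful. The gene symbols used here are mainly those of S. cerevisiae counterparts, and the roles given are those known in that yeast.

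The median gene signal of an array was 719 to 3048.75 in Cy3 and 2373.75 to 7526 in Cy5, background medians did not exceed 39, and no spot was saturated. ARR1 (KLLA0E00265g), the deleted gene, was lower in the library labelled as the deletion on all 12 arrays, with log2 ratios from -2.20 to -0.61. Where its probe lies in the gene is not stated. On t-BOOH replicate 3 the log2 ratios correlated with those of the other t-BOOH arrays at a mean r of 0.03, against 0.41 to 0.54 for the other t-BOOH arrays. Log2 levels of untreated replicate 4 (mean r of 0.942 with the other untreated arrays, which had 0.977 or more) and t-BOOH replicate 1 (0.916, against 0.964 or more) also stood apart.

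By normalized ratio, INO1 had less RNA in the deletion strain than in the wild type on all 12 arrays, in all 3 conditions. The deficit was 2.21-fold in untreated cells, 2.19-fold under arsenite and 4.86-fold under t-BOOH. The t-BOOH value comes with a wild-type level 3.91-fold above the untreated one and a deletion-strain level 1.78-fold above its own. Both rises are of normalized levels, and both were smaller from the scanner's processed signals. Without background subtraction the wild-type rise was larger (4.26-fold).

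In untreated cells the log2 ratio of deletion over wild type was -1.28, -1.14, -0.92 and -1.22 on replicates 1 to 4. The mean was -1.14 ± 0.16 (SD, n = 4), with a standard error (SE) of 0.10 from the limma fit. All 4 arrays lay below 0, and 1 of them, replicate 3, was lower by less than 2-fold. A ratio below 0 on all 4 untreated arrays was found for 10.1% of the 5069 genes tested.

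Under arsenite the log2 ratios were -1.33, -1.11, -1.42 and -0.66. The mean was -1.13 ± 0.34 (SD, n = 4), and the SE of 0.10 is again that of the pooled fit, not of these 4 arrays alone. Replicate 4 was the weakest, and the other 3 arrays were each lower by more than 2-fold. The arsenite and untreated ratios overlapped, and their means differed by 0.01 on the log2 scale (SE 0.14). The share of genes below 0 on all 4 arsenite arrays was 17.7%.

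Under t-BOOH the log2 ratios were -2.06, -2.24, -2.26 and -2.57. The mean was -2.28 ± 0.21 (SD, n = 4; SE 0.10). All 4 ratios lay below every untreated and every arsenite ratio, which was the case for 3.12% of genes. Of all genes, 15.9% were below 0 on the 4 t-BOOH arrays and 1.54% on all 12 arrays. Replicate 3, whose ratios over all genes followed the other t-BOOH arrays least, gave an INO1 ratio inside the range of the other 3, and the plain mean of those 3 was -2.29 (dye-adjusted fitted value -2.23). Without the 3 arrays that stood apart the plain means were -1.12 untreated (n = 3) and -2.40 under t-BOOH (n = 2), and the dye-adjusted fitted values -1.18 and -2.21. Both t-BOOH arrays left by that omission have the deletion strain in Cy3.

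**Figure D1:**
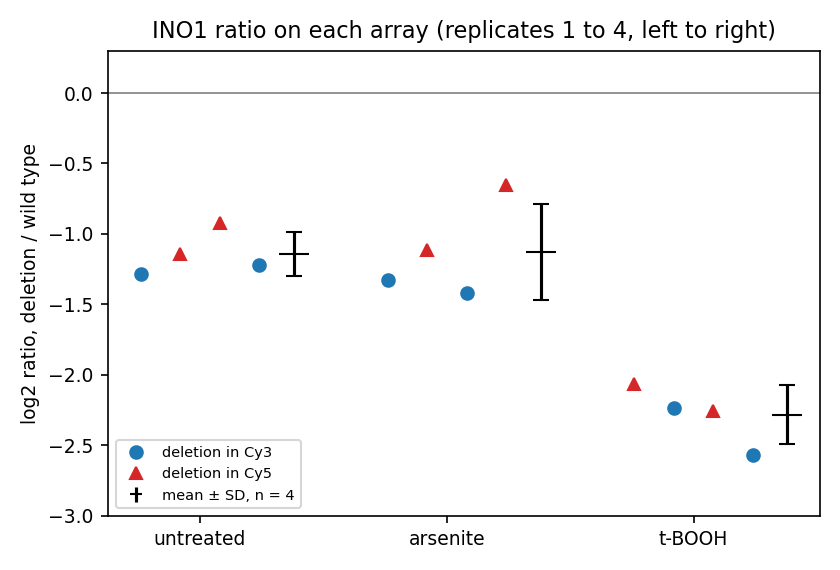
INO1 log2 ratio of deletion over wild type (y axis) on each array by condition (x axis), replicates 1 to 4 from left to right, with circles for the deletion strain in Cy3, triangles for Cy5, and the mean ± SD (n = 4) beside them. All 12 points lie below 0, and the 4 t-BOOH points (-2.57 to -2.06) lie below the other 8 (-1.42 to -0.66).

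The mean t-BOOH ratio was 1.14 lower than the untreated one on the log2 scale (difference -1.14, SE 0.14), and the difference from arsenite was -1.15 (SE 0.14). The t-BOOH arrays all lay on slide 2, and the untreated and arsenite arrays on slide 1, so for these differences slide and condition cannot be told apart. Within each array the strains shared the slide.

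The dye orientation moved the INO1 ratio less than the strain did. With the deletion strain in Cy3 the mean log2 ratio was -1.25 untreated, -1.37 under arsenite and -2.40 under t-BOOH. With the deletion strain in Cy5 it was -1.03, -0.88 and -2.16. The ratio was thus further below 0 with the deletion in Cy3 in all 3 conditions, and below 0 in both orientations.

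The 2 INO1 spots of an array gave nearly the same ratio, with a median difference of 0.04 and a largest difference of 0.17 on the log2 scale. All 48 spot channels were well above background. Median signals ran from 85.25 in the deletion strain, on untreated replicate 4, to 3339 in the wild type, on t-BOOH replicate 4. Before normalization the deletion strain, in Cy5, was the higher on arsenite replicate 4 (244.75, against 207 in the wild type). Over all genes the median signal of that array was 6128.5 in Cy5 and 2659 in Cy3. On untreated replicate 3 the raw signals were 364 in the deletion strain and 384.75 in the wild type.

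Among the 5069 genes tested, the INO1 ratio had rank 17 from the lowest in untreated cells, rank 23 under arsenite and rank 8 under t-BOOH. At a limma adjusted p under 0.05, 0.612% of genes were called in untreated cells, 4.3% under arsenite and 18% under t-BOOH.

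**Figure D2:**
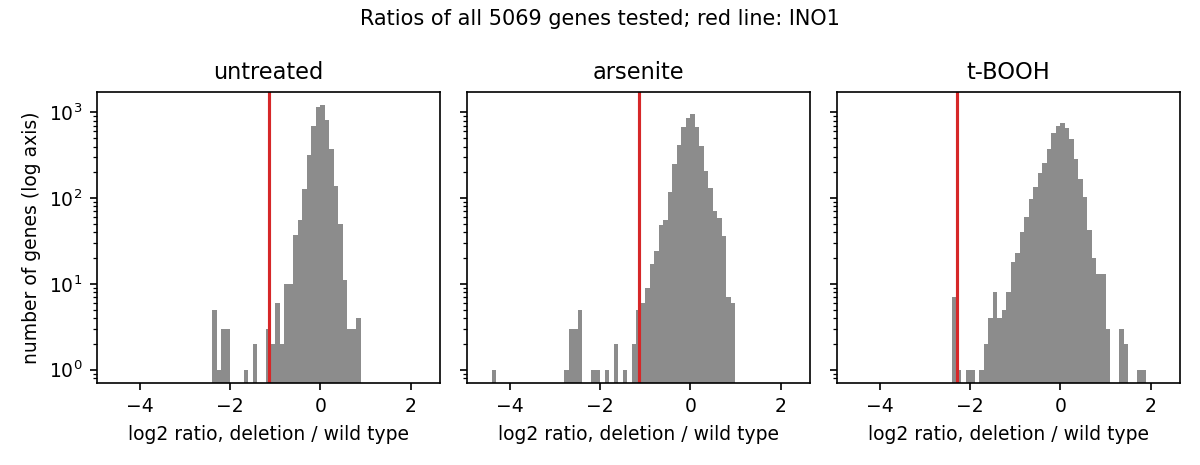
Histograms of the log2 ratio of deletion over wild type (x axis) for all 5069 genes tested, with the number of genes on a log y axis, in 1 panel per condition, and a red line at INO1. The line stands at -1.14 untreated, -1.13 under arsenite and -2.28 under t-BOOH, in the lower tail of each panel.

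Levels of the single channels show how the ratio is made up. They are normalized log2 intensities, comparable for INO1 between arrays but not with other genes. In wild-type cells the INO1 level was 8.69, 8.66, 8.35 and 8.76 on untreated replicates 1 to 4, with a mean of 8.62 ± 0.18 (SD, n = 4). Under arsenite it was 8.62, 8.31, 8.48 and 7.88 (8.32 ± 0.32). The wild-type ranges of these conditions overlapped.

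Under t-BOOH the wild-type level was 10.83, 10.23, 10.31 and 10.98, with a mean of 10.58 ± 0.37 (SD, n = 4). Every one of these values lay above every untreated and arsenite value. The lowest of them exceeded the highest untreated level by more than 1 log2 unit. This separation holds for normalized levels. Raw wild-type median signals on t-BOOH replicates 1 to 4 were 343.25, 950.5, 513.75 and 3339, against 678.25, 359.25, 384.75 and 347.25 untreated. Replicate 1 was thus below every untreated array before normalization. Its median gene signal in Cy3, the wild-type dye there, was 719, against 1382.75 to 3048.75 untreated. The fitted change from untreated was 1.97 (SE 0.18), at rank 99 from the highest of 5069 genes. Wild-type levels were higher under t-BOOH than in untreated cells, without overlap, for 20% of genes.

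In the deletion strain the untreated level was 7.41, 7.52, 7.43 and 7.54, with a mean of 7.47 ± 0.07 (SD, n = 4). Under arsenite it was 7.30, 7.20, 7.06 and 7.22 (7.20 ± 0.10). These are the narrowest groups of normalized INO1 levels, and they did not overlap, with arsenite the lower. The same non-overlap was found for 11.7% of genes, and the fitted change was -0.28 (SE 0.18), beside -0.29 (SE 0.18) in the wild type.

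Under t-BOOH the deletion-strain level was 8.76, 7.99, 8.05 and 8.41 (8.30 ± 0.36). All 4 values lay above the untreated values of the same strain, as was the case for 18.4% of genes. They also lay below all 4 wild-type t-BOOH values. As in the wild type, the separation from untreated holds for normalized levels. Raw deletion-strain median signals on t-BOOH replicates 1 to 4 were 247.5, 87.75, 278.75 and 148.5. Untreated they were 144.75, 221.5, 364 and 85.25, and the raw ranges overlapped. The fitted change from untreated was 0.83 (SE 0.18), at rank 625 from the highest. From the scanner's processed signals it was smaller, as given at the end. Without the 3 arrays that stood apart the fitted t-BOOH change was 0.88 in the deletion strain and 1.90 in the wild type.

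**Figure D3:**
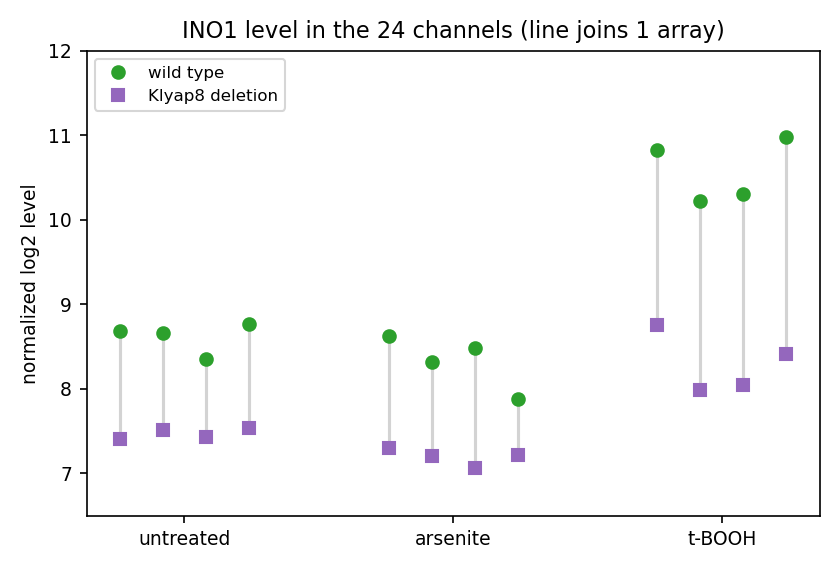
Normalized INO1 log2 level (y axis) in the 24 channels by condition (x axis), with circles for the wild type, squares for the Klyap8 deletion and a line joining the channels of 1 array. The wild type lies above the deletion on every array, and the wild-type t-BOOH values (10.23 to 10.98) lie above all others.

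By mean level the order was wild type under t-BOOH, wild type untreated, wild type under arsenite, deletion under t-BOOH, deletion untreated and deletion under arsenite. Wild type untreated, wild type under arsenite and deletion under t-BOOH overlapped one another. The INO1 levels of the peroxide-treated deletion strain thus overlapped those of the untreated wild type. Within each condition the levels of the strains did not overlap, with the deletion lower. This was the case for 1.03% of genes in untreated cells, 8.09% under arsenite and 4.3% under t-BOOH.

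The size of the deficit differed between processing settings, and its direction was the same under every setting run. The authors' deposited table gave means of -1.26 untreated, -1.24 under arsenite and -2.48 under t-BOOH. Its values on replicates 1 to 4 were -1.38, -1.27, -0.99 and -1.40 in untreated cells. Under arsenite the authors' deposited table held -1.45, -1.23, -1.55 and -0.71. Under t-BOOH it held -2.24, -2.52, -2.42 and -2.74. Each of these 12 values of the authors' deposited table was further below 0 than the one computed here. From the scanner's processed signals the means were -1.57, -1.59 and -2.91, the last of which is a 7.52-fold deficit.

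**Figure D4:**
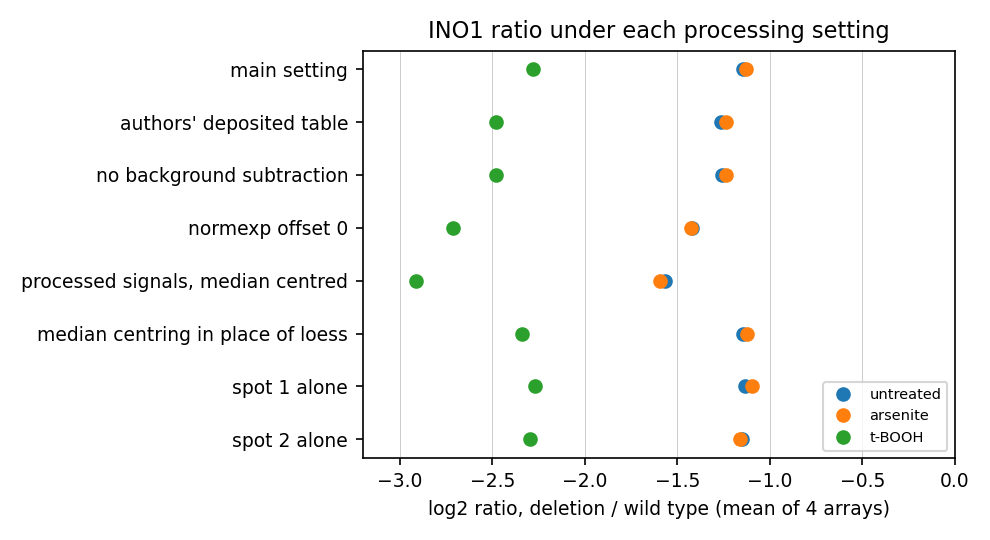
Mean INO1 log2 ratio of deletion over wild type over the 4 arrays of a condition (x axis) under each processing setting (y axis), with 1 colour per condition. Every point is below 0, and t-BOOH lies furthest below 0 in each row, from -2.27 to -2.91.

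The genes around INO1 on its chromosome had ratios nearer 0. In the order of the reference annotation, the neighbours on one side are TAF12 (KLLA0D16368g), a subunit of the general transcription machinery, and DIP2 (KLLA0D16390g), of the ribosome-making U3 complex. On the other side are ZRT2 (KLLA0D16434g), a zinc transporter, and KLLA0D16456g, which has no symbol in the annotation used. TAF12 had log2 ratios of 0.03 untreated, 0.05 under arsenite and -0.01 under t-BOOH. DIP2, next to INO1, had 0.38, 0.61 and 0.21, above 0 where INO1 was below. None of these ratios passed limma's test, and neither did those of KLLA0D16456g.

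ZRT2, the adjacent gene on the other side, was the neighbour with 1 call. Its log2 ratios under t-BOOH were -1.07, -0.84, 0.07 and -0.57, with a mean of -0.60 (SE 0.15, limma adjusted p = 0.0187). Replicate 3 stood at about 0, unlike for INO1, and the call was lost without replicate 1, 2 or 4, with values from -0.82 to -0.39 over the omissions. Of the 4 neighbours, 2 fell in the wild type under t-BOOH (21.9% of all genes were called lower). DIP2 fell by 2.56 (SE 0.30, limma adjusted p = 4.54e-07) and KLLA0D16456g fell by 1.61 on the log2 scale (adjusted p = 8.69e-05). TAF12 (-0.06) and ZRT2 (-0.25) did not pass.

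Besides INO1, 61 of the 84 listed symbols for inositol and lipid metabolism were matched by name in the annotation used and measured. A symbol without a match may stand for a gene on the array under another name. They cover inositol supply, regulators of INO1, phospholipid synthesis, phosphatidate and neutral lipids, fatty acids, phosphoinositide kinases, inositol polyphosphates, inositol sphingolipids, glucose 6-phosphate use and the unfolded protein response. In untreated cells limma called 0 of the 61, beside 0.612% of all genes. Of the 61, 6 had an unadjusted p under 0.05, as did 10.4% of all genes. The median log2 ratio of the 61 was 0.03, beside 0.01 for all genes.

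Under arsenite 3 of the 61 (4.92%, against 4.3% of all genes) differed between the strains, and all 3 were lower in the deletion, a direction called for 3.39% of all genes (higher 0.907%). GPT2, an acyltransferase that starts phosphatidate synthesis, had a log2 ratio of -0.98 (limma adjusted p = 0.00911). OPI3, a methyltransferase of phosphatidylcholine synthesis, had -0.49 (adjusted p = 0.0463). INO4, a subunit of the activator of INO1 in S. cerevisiae, had -0.49 (adjusted p = 0.0410). The median of the list was 0.05, beside 0.00 for all genes. Without the 3 arrays that stood apart 7 of the 61 (11.5%) were called, and 16.3% of all genes.

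Each of these 3 calls depended on single arrays. GPT2 was lost without arsenite replicate 2 or 3, with values from -1.21 to -0.81 over all omissions. INO4 (-0.55 to -0.46) was lost on leaving out replicate 2 of any condition, or arsenite replicate 1 or 3. OPI3 (-0.62 to -0.41) was lost without any 1 of the untreated arrays, arsenite replicates 1 to 3, or t-BOOH replicates 2 and 4.

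Under t-BOOH 15 of the 61 (24.6%, against 18% of all genes) differed, 9 higher and 6 lower in the deletion strain. Of all genes 7.42% were called higher and 10.6% lower. The median log2 ratio of the 61 was -0.03, beside 0.00 for all genes, against -2.28 for INO1. The lowest ratio in the list was that of CHO1 at -0.55, and the lowest called one that of STT4, a phosphatidylinositol 4-kinase, at -0.51.

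The regulators of INO1 in S. cerevisiae showed 1 call under t-BOOH. UME6, a DNA-binding regulator that recruits a corepressor to INO1, had a log2 ratio of -0.40 (limma adjusted p = 0.0479). The activator genes INO2 and INO4 had 0.10 (adjusted p = 0.602) and -0.23 (adjusted p = 0.197), and the repressor gene OPI1 had -0.25 (adjusted p = 0.0612). In untreated cells the ratios were -0.05 for INO2, -0.27 for INO4 and -0.10 for OPI1, and none passed limma's test. ITR1, the inositol transporter and the only other symbol of the supply list matched by name, had -0.21 untreated and -0.24 under t-BOOH, and neither passed.

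In phospholipid synthesis 1 gene was higher and 1 lower in the deletion strain under t-BOOH, of 10 measured. CDS1, which makes the CDP-diacylglycerol that joins inositol in phosphatidylinositol, had log2 ratios of 0.89, 0.85, 0.15 and 0.88 (mean 0.69, limma adjusted p = 0.00210). Its call held on every omission of 1 array, with values from 0.58 to 0.85. The CDS1 ratio was also higher under t-BOOH than in untreated cells, the 1 such call of the 61 (2.84% of all genes were called), and than under arsenite, with ARG82 the other of 2 calls (8.01% of all genes). CPT1, a cholinephosphotransferase, had -0.44 (adjusted p = 0.00958).

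CHO1, CHO2 and OPI3, which make phosphatidylserine and phosphatidylcholine, did not pass under t-BOOH. CHO1, the phosphatidylserine synthase, had log2 ratios of -1.34, -0.64, 0.29 and -0.52 (mean -0.55, limma adjusted p = 0.0613), and passed without replicate 3. CHO2, the first methyltransferase towards phosphatidylcholine, had 0.23 (adjusted p = 0.293), and OPI3, the second, had 0.00 (adjusted p = 0.987).

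The other 11 called members that the naming rule takes belong to the remaining lists. Called higher by limma were PGI1 (0.92), glucose 6-phosphate isomerase, ACC1 (0.73), acetyl-CoA carboxylase, PDI1 (0.56), protein disulfide isomerase, and ISC1 (0.52), an inositol sphingolipid phospholipase. So were ARG82 (0.39), an inositol polyphosphate kinase, LRO1 (0.34) and ALE1 (0.26), acyltransferases, and PIK1 (0.32), a phosphatidylinositol 4-kinase. STT4 (-0.51), KEI1 (-0.50), a subunit of inositol phosphorylceramide synthase, and IPK1 (-0.42), an inositol polyphosphate kinase, were lower. Adjusted p-values of these 11 genes ran from 0.00816 for ARG82 to 0.0491 for STT4. The log2 ratios of PGI1 were 1.71, 1.25, -0.72 and 1.43 on replicates 1 to 4, so replicate 3 went the other way. The 1 call outside the rule, named after its value was seen, was IPT1 (-0.36, limma adjusted p = 0.0241), of the inositol sphingolipid list, also lower.

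Of the 14 called genes that the naming rule takes, CDS1 alone held on every omission, and the other 13 were lost on at least 1. IPT1, outside the rule, was not followed over the omissions. Without t-BOOH replicate 2 the count over the 61 genes was 1 (1.64%, against 5.07% of all genes), and without replicate 3 it was 22 (36.1%, against 31% of all genes). With the t-BOOH arrays fitted alone 0 of the 61 and 5 of all 5069 genes were called.

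**Figure D5:**
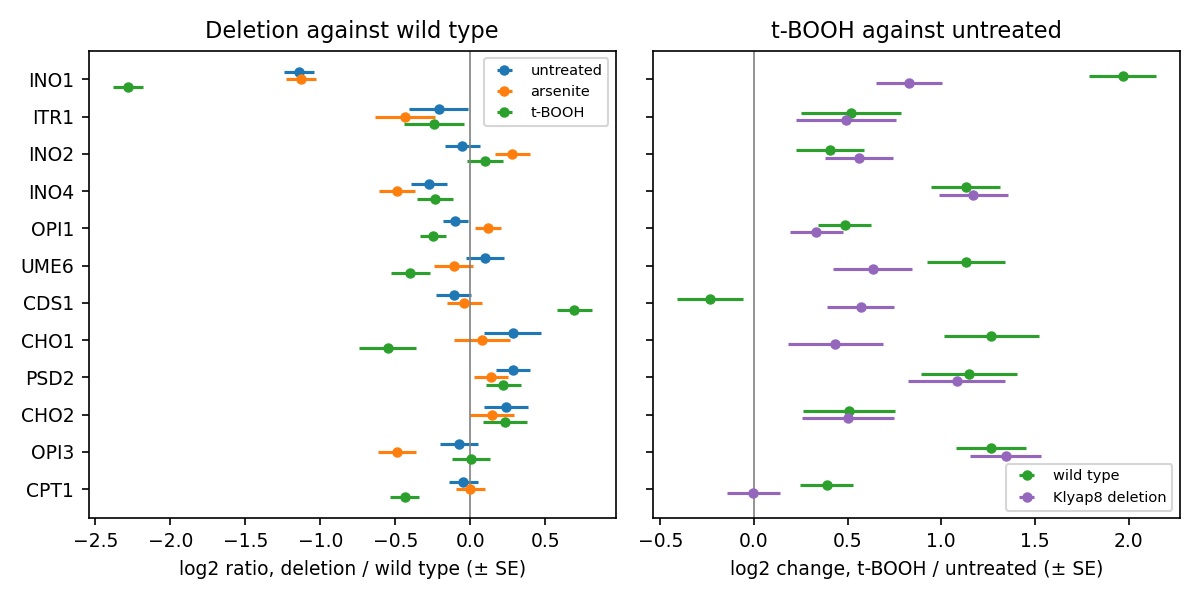
Log2 ratio of deletion over wild type in the 3 conditions (left x axis) and log2 change of each strain from untreated to t-BOOH (right x axis) for INO1 and 11 genes of inositol supply, INO1 regulation and phospholipid synthesis (y axis), as fitted values ± SE. INO1 lies at -2.28 in the left panel under t-BOOH, where CDS1 (0.69) lies furthest on the other side, and at 1.97 for the wild type and 0.83 for the deletion in the right panel.

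Under t-BOOH, where the INO1 level was higher, genes of the lists both rose and fell. Of the 61 genes, 18 rose and 10 fell in the wild type by limma (45.9%, against 49% of all genes, 27.1% higher and 21.9% lower). In the deletion strain 17 rose and 10 fell (44.3%, against 43% of all genes, 23.6% higher and 19.4% lower). Both shares are near those of all genes. These responses compare slide 2 with slide 1, and the arsenite and t-BOOH responses of a strain share its untreated samples.

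Among the 6 measured regulators, 3 rose and 0 fell in the wild type, beside 27.1% of all genes called higher and 21.9% lower. INO4 rose by 1.13 (limma adjusted p = 3.05e-05), UME6 by 1.13 (adjusted p = 1.33e-04) and OPI1 by 0.48 (adjusted p = 0.00744). INO2 had a change of 0.41 that did not pass (adjusted p = 0.0692). In the deletion strain INO4 rose by 1.17 (adjusted p = 2.36e-05), close to its wild-type value. UME6 (0.63, adjusted p = 0.0182) and INO2 (0.56, adjusted p = 0.0164) also rose there, with the UME6 call lost without t-BOOH replicate 2 or 3 and that of INO2 without untreated replicate 3.

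In phospholipid synthesis 4 of 10 rose and 0 fell in the wild type under t-BOOH, beside the same shares of all genes (27.1% and 21.9%). CHO1 and OPI3 each rose by 1.27 (limma adjusted p = 3.07e-04 and 1.12e-05). In the deletion strain OPI3 rose by 1.34 (adjusted p = 6.28e-06), PSD2, a phosphatidylserine decarboxylase, rose by 1.08 (adjusted p = 0.00176), and CHO1 had 0.43 (adjusted p = 0.180). CHO2 had 0.51 in the wild type (adjusted p = 0.0914) and ITR1 had 0.52 (adjusted p = 0.111), and neither passed.

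The counts in the other lists in the wild type under t-BOOH stand beside 27.1% of all genes called higher and 21.9% lower. Of the phosphoinositide genes 4 of 8 rose and 0 fell. Of fatty acid synthesis 3 of 4 fell and 0 rose, and of glucose 6-phosphate use, the substrate side of INO1, 2 of 4 fell and 0 rose. Of phosphatidate and neutral lipid genes 3 rose and 2 fell of 10, of inositol polyphosphate genes 2 rose and 1 fell of 7, and of sphingolipid genes 1 rose and 2 fell of 7. Of the unfolded protein response 1 of 4 rose.

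Under arsenite, where INO1 had changes of -0.29 and -0.28 in the wild type and the deletion, 15 of the 61 genes were called in the wild type (9 higher and 6 lower). That is 24.6%, against 22.3% of all genes (12.3% higher and 10% lower). Without the 3 arrays that stood apart the wild-type count was 31 (50.8%, against 46.9% of all genes), and that of the deletion strain 20 (32.8%, against 32.7%). With all arrays 8 were called in the deletion strain (6 higher and 2 lower), which is 13.1%, against 10.3% of all genes (6.53% higher and 3.81% lower). ITR1, which brings inositol into the cell, rose by 1.76 in the wild type (limma adjusted p = 7.27e-05) and by 1.54 in the deletion strain (adjusted p = 7.65e-04). In the wild type OPI3 rose by 0.89 (adjusted p = 0.00184), and ECT1, an enzyme of phosphatidylethanolamine synthesis, fell by 1.06 on the log2 scale (adjusted p = 0.0104). In the deletion strain CDS1 rose by 0.60 (adjusted p = 0.0327), a call lost without any 1 of untreated replicates 1 to 3 or of the arsenite arrays.

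The genes with the pattern most like INO1 over the 12 log2 ratios were KLLA0B10219g (Pearson r = 0.902), WAR1 (0.900), a regulator of the weak-acid response, FKS3 (0.899), a relative of glucan synthase subunits, KLLA0F20856g (0.896) and SVL3 (0.886). Over the 24 channel levels they were RRT8 (r = 0.936), PFS1 (0.916), FKS3 (0.890), FAU1 (0.887), a folate enzyme, and KLLA0F24486g (0.885), each out of 5068 genes. FKS3 was in both sets. The points share arrays, dyes and slides, so these values describe likeness across the arrays only.

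The log2 ratios of these genes under t-BOOH were nearer 0 than that of INO1. They were -0.85 for KLLA0B10219g, -0.87 for WAR1, -0.90 for FKS3, -0.35 for KLLA0F20856g and -0.49 for SVL3. Among the genes most like it in level, RRT8 had -1.19, FAU1 -0.97, PFS1 -0.64 and KLLA0F24486g -0.63. RRT8 was also below 0 in untreated cells (-0.67) and under arsenite (-0.82).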

How the data were processed

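RNA of both strains was measured on 12 2-colour arrays, grouped by condition from the labels. The deposited scans, read with Feature Extraction 10.7.3.1 per the file headers, hold median intensity values without normalization, and processed intensity values that the scanner software had background-subtracted and dye-normalized. Their log10 ratios, red over green, come from the latter per the file headers. The authors' deposited log2 table was checked against the scans as deletion over wild type. Over genes, r was 0.991 to 0.999 and the slope 1.01 to 1.03. In replicate order, the untreated columns had medians of -0.01, -0.00, -0.00 and -0.01, the arsenite columns -0.02, 0.00, 0.00 and 0.00, and the t-BOOH columns 0.01, -0.01, 0.01 and -0.03. Its normalization and centring, and the genome build, are not given in the sources used here.

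Log2 ratios were computed with limma 3.58.1 in R 4.3.3 from median signals, used in place of the planned mean signals, with normexp background correction (offset 50) and loess within arrays. Control spots and outlier flags were left out, and spots of a gene were averaged. A gene was tested if either channel was well above background on 4 or more arrays, which left 5069 of 5081. Ratios were fitted with a term per condition and 1 for the dye (8 residual degrees of freedom). Levels were fitted after Aquantile by separate-channel analysis (intraspot correlation 0.639). Genes were called at a Benjamini-Hochberg adjusted p under 0.05 over all genes tested. The scripts were tested on simulated data.

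The gene, the lists and the naming rule were chosen with earlier results of these data known. Named are INO1, the 2 genes on each side of it, ARR1, up to 2 called members a list and comparison, 7 fixed genes (INO2, INO4, OPI1, ITR1, OPI3, CHO1 and CHO2) and the 5 most like INO1 by each measure. For the stress responses, members of the supply, regulator and phospholipid lists alone are named. Names and neighbours were taken from RefSeq's ASM251v1 gene table, which matched 5069 identifiers, 3955 with a symbol. The replicates are separate experiments per the series design, and their number limits the precision. Same-numbered arrays of different conditions correlated above 0.1 in their deviations in 2 of 12 pairs for ratios and 4 of 12 for levels, so the numbers were not treated as pairing.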

Additional observations from a re-analysis of the deposited data

Results flagged for a closer look

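INO1 itself had no sample far from the others of its group. Over INO1 and genes named beside it, 113 groups of 4 were examined. Of these, 12 held a sample whose gap to the nearest other took up most of the group's range (chance gives about 1 in 20).

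Replicate 3 of t-BOOH was the sample apart for 4 log2 ratios of deletion over wild type. These were CDS1 at 0.15 (others 0.85 to 0.89), ACC1 at -0.11 (0.93 to 1.13), IPK1 at 0.17 (-0.68 to -0.54) and INO2 at -0.14 (0.15 to 0.20). PIK1 on t-BOOH replicate 1 had 0.24 (0.34 to 0.35), and CHO1 on untreated replicate 2 had -0.065 (0.36 to 0.42).

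Among log2 levels, untreated replicate 4 stood apart in the wild type for ECT1 at 10.25 (8.79 to 9.04) and for ZRT2 at 13.58 (13.16 to 13.18). Under t-BOOH, replicate 1 stood apart for INO2 in the wild type at 10.84 (10.24 to 10.34) and for KLLA0D16456g in the deletion strain at 8.20 (9.64 to 9.80). Under arsenite, INO4 in the wild type had 9.89 on replicate 4 (10.23 to 10.26) and INO2 in the deletion strain had 9.69 on replicate 2 (9.93 to 9.94).

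The ratio of deletion over wild type differed between conditions for 2 of the 61 lipid and inositol genes. Between t-BOOH and untreated 1 was called (1.64%, against 2.84% of all genes). Between t-BOOH and arsenite 2 were called (3.28%, against 8.01% of all genes). CDS1 was higher under t-BOOH than in untreated cells by 0.80 (SE 0.16, limma adjusted p = 0.0295) and than under arsenite by 0.73 (SE 0.16, limma adjusted p = 0.0228). ARG82 was higher under t-BOOH than under arsenite by 0.47 (SE 0.12, limma adjusted p = 0.0326). Slide and condition cannot be told apart for these differences.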

How the results depend on the processing

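INO1 kept the direction of its log2 ratio in all 3 conditions under every setting run. With the processed signals it was -1.57 untreated, -1.59 under arsenite and -2.91 under t-BOOH, and with a normexp offset of 0, chosen after seeing the data, -1.42 untreated and -2.71 under t-BOOH. The cause was not tested. From processed signals the change of the deletion strain was -0.46 under arsenite and 0.43 under t-BOOH. Leaving out 1 array gave dye-adjusted fitted ratios of -1.17 to -1.08, -1.25 to -1.07 and -2.36 to -2.23, wild-type changes of -0.37 to -0.16 (arsenite) and 1.86 to 2.12 (t-BOOH), and deletion-strain changes of -0.34 to -0.23 and 0.70 to 0.94.

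Counts of called genes among the 61 moved more. At an adjusted p under 0.01 they were 1 (from 3) between strains under arsenite (1.64%, against 0.907% of all genes). Under t-BOOH they were 4 (from 15) between strains (6.56%, against 6.49%). For the arsenite response they were 7 (from 15) in the wild type (11.5%, against 11.8%) and 3 (from 8) in the deletion (4.92%, against 4.34%). With each condition fitted alone the strains differed for 8 genes under arsenite and 0 under t-BOOH (732 and 5 of all genes). From processed signals the strains differed for 1 under arsenite (1.64%, against 3.33% of all genes). Without the 3 arrays that stood apart (untreated replicate 4 and t-BOOH replicates 1 and 3, chosen after seeing the data) counts were 1 untreated and 7 under arsenite between strains, and 31 (wild type) and 20 (deletion) for the arsenite response, beside 72, 824, 2375 and 1656 of all 5069 genes (31, 218, 1130 and 524 with all arrays). Leaving out 1 array gave 0 to 0, 0 to 4 and 1 to 22 between strains. Of all genes 0.375% to 1.01%, 0.572% to 8.74% and 5.07% to 31% were then called. For the wild type under arsenite and t-BOOH it gave 8 to 25 and 24 to 32 (beside 12.4% to 35.9% and 42% to 55.7% of all genes). For the deletion it gave 4 to 12 and 21 to 32 (beside 5.23% to 20.6% and 35.8% to 51% of all genes). The t-BOOH count was 4, 1, 22 and 2 without t-BOOH replicates 1 to 4 (6.56%, 1.64%, 36.1% and 3.28%, against 8.38%, 5.07%, 31% and 7.4% of all genes). Without arsenite replicates 1 and 2 it was 9 and 8 (14.8% and 13.1%, against 14.8% and 14.8% of all genes).

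The replicate block, which pairs arrays by number although the numbers are only shared, left the INO1 ratios at -1.14, -1.13 and -2.28. It gave 9 called genes of the lists in place of 15 under t-BOOH (14.8%, against 14.4% of all genes). Ratios correlated best with their own number in 2 of 12 cases. For single named genes, 1954 values kept their side of the threshold, 160 no longer passed, 39 newly passed and 0 reversed.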
